A study of Mus musculus with 6 samples.

Results

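Cycling cells were singled out from a single-cell RNA-Seq survey of mouse lung as droplet barcodes that held at least 1 unique molecular identifier (UMI, a tag that marks a captured RNA molecule) of *Mki67* and at least 1 of *Top2a*. Barcodes entered when they held at least 500 genes, at least 1000 UMIs and under 15% mitochondrial UMIs. This left 44096 barcodes in 6 libraries, of which 134 (0.304%; exact binomial 95% interval, 0.255% to 0.360%) were cycling cells. The libraries held CD45- cells, which remain after magnetic removal of blood-derived cells, and were made with the 10x 3′ chemistry. The mice were C57BL/6, and per the study's methods they were 10–12 weeks old and were sampled 2 weeks after 4 doses of tamoxifen. Of the libraries, 4 were labelled control and 2 Zip8 knockout. The knockout mice (Zip8AEC2) carried SFTPC-CreER, a Rosa26-tdTomato reporter and Zip8 fl/fl alleles, so that tamoxifen was to delete *Slc39a8*, the gene of the zinc importer ZIP8, in type 2 alveolar epithelial cells (AEC2s) only. The controls were littermates, whose alleles, like the number of mice per library, were not given in the sources used here; the study's organoid work compared Zip8AEC2 with mice that carried SFTPC-CreER and the reporter without the floxed gene, but this was not stated for these libraries. Because nothing tied the libraries to separate mice, p-values measured only the spread between libraries, and intervals covered counting error only.

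A dividing cell copies its DNA in S phase and separates the copies in G2 and mitosis (G2/M). *Mki67* encodes the Ki-67 protein that coats mitotic chromosomes, and *Top2a* encodes the topoisomerase that untangles the copied DNA; both transcripts rise from S phase to mitosis and fade in resting cells. S-phase genes are switched on largely by E2F factors, whereas many G2/M genes are held back in resting cells by the DREAM complex and later activated by MYB-MuvB and FOXM1 through a promoter element named the CHR, often with CCAAT boxes bound by NF-Y nearby. In the adult lung division is rare; AEC2s are the best known self-renewing cells of the alveoli, club cells play that part in the small airways, and endothelial, mesothelial and fibroblast cells divide at low rates.

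The promoters of both marker genes held these letters, and they are shown with a second G2/M gene, *Cdk1* (the kinase that drives mitosis), and an S-phase gene, *Mcm6* (a subunit of the replicative helicase), which was chosen after its sequence was seen because it held E2F letters. Each runs 5′ to 3′ on the gene's own strand from 250 bases before to 50 bases from the RefSeq start (GRCm38.p6, the same assembly as mm10). Capitals mark the letters of the CHR element, TTTGAA, those of the box named CCAAT and E2F letters (TTTCCCGC and its variants TTTCGCGC and TTTGCCGC, or else TTTGGCGC), searched on both strands; overlapping E2F matches run together. The windows lie at chr7:135716330-135716629 (*Mki67*, minus strand), chr11:99024140-99024439 (*Top2a*, minus strand), chr10:69352863-69353162 (*Cdk1*, minus strand) and chr1:128359656-128359955 (*Mcm6*, minus strand).
Mki67: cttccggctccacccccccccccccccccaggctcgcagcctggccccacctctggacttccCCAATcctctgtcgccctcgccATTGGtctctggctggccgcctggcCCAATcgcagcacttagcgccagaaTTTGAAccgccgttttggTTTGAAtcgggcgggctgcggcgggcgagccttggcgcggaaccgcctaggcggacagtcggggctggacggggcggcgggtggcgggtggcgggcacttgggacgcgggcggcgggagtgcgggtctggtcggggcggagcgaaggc
Top2a: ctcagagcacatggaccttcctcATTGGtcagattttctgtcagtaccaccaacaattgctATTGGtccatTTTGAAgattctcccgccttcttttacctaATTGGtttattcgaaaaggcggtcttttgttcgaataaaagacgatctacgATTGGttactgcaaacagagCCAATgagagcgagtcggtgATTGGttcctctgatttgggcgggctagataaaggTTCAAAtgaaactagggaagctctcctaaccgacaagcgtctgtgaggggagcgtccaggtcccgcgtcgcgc
Cdk1: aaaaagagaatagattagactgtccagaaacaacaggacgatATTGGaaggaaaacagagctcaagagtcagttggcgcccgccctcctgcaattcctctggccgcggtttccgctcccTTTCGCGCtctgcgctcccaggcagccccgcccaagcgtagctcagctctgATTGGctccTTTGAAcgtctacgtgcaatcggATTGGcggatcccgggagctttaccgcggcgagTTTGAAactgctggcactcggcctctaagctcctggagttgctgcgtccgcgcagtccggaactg
Mcm6: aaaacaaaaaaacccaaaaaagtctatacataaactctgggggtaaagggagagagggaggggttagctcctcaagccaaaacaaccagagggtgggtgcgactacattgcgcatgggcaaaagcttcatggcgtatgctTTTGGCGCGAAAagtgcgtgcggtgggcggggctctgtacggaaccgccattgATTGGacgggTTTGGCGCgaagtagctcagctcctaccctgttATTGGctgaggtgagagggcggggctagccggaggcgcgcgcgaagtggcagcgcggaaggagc
The *Mki67* window held CHR letters that began 116 and 98 bases before the start, and the *Top2a* window held them 179 and 23 bases before it, with 6 CCAAT matches in the window. The *Mcm6* window held E2F letters 110, 106 and 47 bases before the start and no CHR letters. Among promoters of a list of 52 G2/M genes (45 matched in RefSeq, 50 promoters), 64% held CHR letters, 74% CCAAT and 6.0% E2F letters. Among those of a list of 43 S-phase genes (31 matched, 34 promoters), the shares were 17.6%, 67.6% and 35.3%. Across all 32851 promoters they were 17.9%, 37.4% and 2.26%. CHR and CCAAT letters stood together in 50% of the G2/M promoters, 11.8% of the S-phase promoters and 6.95% of all promoters. A match is a string of letters, not a bound site.

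The libraries stood apart in several ways that bear on a rule of this kind. In total they held 105774150, 114018446, 118771907 and 93852253 UMIs in controls 1 to 4, and 107957330 and 103337822 in Zip8 knockout 1 and 2. The median UMIs of kept barcodes were 10193, 6107, 9519.5 and 7065 in the controls and 10988 and 12463 in the libraries labelled Zip8 knockout, so the latter were sampled most deeply. Of the 44096 kept barcodes, 21091 (47.8%) had a sequence that was also present in another library. Among cycling cells 103 of 134 were shared in this way, but the other copies were small: their median was 1024 UMIs, or 3.86% of the cycling cell's own UMIs. Of these, 2 cycling cells carried the same barcode in 2 libraries, and the shallower of them was the 1 cycling cell with a deeper copy elsewhere. A doublet caller marked 15 of the 134 as likely pairs of cells, against 2693 of all kept barcodes.

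The targeted gene did not set the labels apart. In the cycling cells *Slc39a8* stood at 115, 35.6, 65.1 and 88.3 CPM (counts per 1000000, the UMIs of a gene scaled to that many UMIs of the cells summed) in controls 1 to 4, against 46.1 and 87.6 CPM under the Zip8 knockout label. In the non-cycling AEC2-lineage cells defined below it was 252, 236, 220 and 236 CPM against 259 and 253 CPM. Counts from the 3′ end cannot tell a transcript that lacks the deleted exons from an intact one, so these values neither check the deletion nor the labels. *Esr1*, the estrogen receptor gene whose human counterpart supplies part of the CreER fusion, did differ in those non-cycling cells, with 22.2 and 24.5 CPM in the labelled Zip8 knockout libraries and no more than 0.287 CPM in any control. The cycling cells of the same lineage held 4.78 and 13.0 CPM, which were 1 and 3 UMIs, against 0 in all 4 controls; whether these reads came from the transgene, or whether the controls carried it, was not tested.

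The values that chose the cells spanned a wide range. The cycling cells held a median of 8 *Mki67* UMIs (1 to 70) and 9 *Top2a* UMIs (1 to 88), as the plot of both genes per cell shows. Their summed *Mki67* level was 463, 574, 634 and 489 CPM in controls 1 to 4 and 255 and 396 CPM under the Zip8 knockout label, and *Top2a* stood at 488, 855, 784 and 526 CPM against 365 and 502 CPM. In all other cells *Mki67* was at most 0.578 CPM and *Top2a* at most 2.19 CPM in any library. Just inside the rule were 12 cells with 1 UMI of each gene; 99 cells held at least 2 of each. Just outside it, 229 barcodes had *Mki67* without *Top2a* and 376 had *Top2a* without *Mki67*, of which 100 and 76 of the latter were in Zip8 knockout 1 and 2 and between 43 and 63 in each control.

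**Figure D1:**
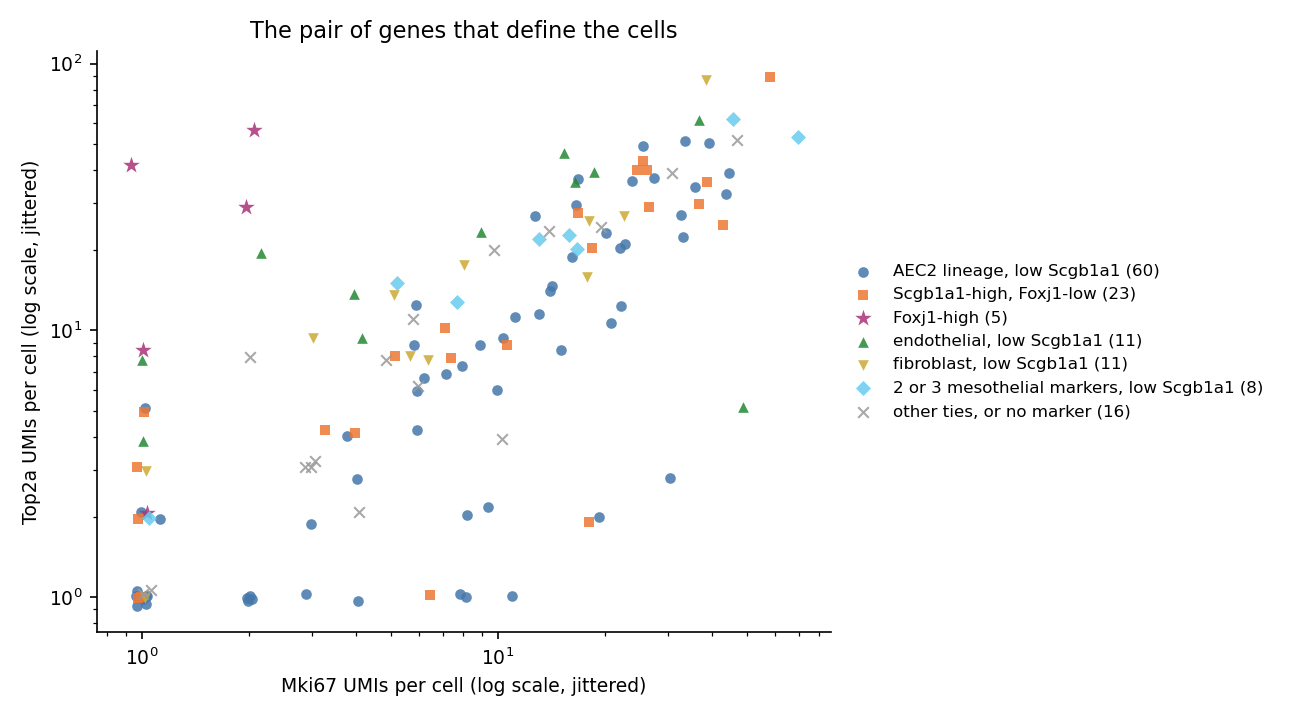
*Mki67* UMIs (x axis, log scale) against *Top2a* UMIs (y axis, log scale) in each of the 134 cycling cells, a point per cell, slightly jittered and coloured by kind of cell. Of the 5 *Foxj1*-high cells, 3 sit at 29 to 57 *Top2a* UMIs with only 1 or 2 of *Mki67*.

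Other cell cycle genes, which the rule did not use, were detected in larger number in most cells inside the rule, but the cells at its edge overlapped with those just outside. Of the 52 G2/M genes, the cycling cells had a median of 39.5 detected, and 111 of the 134 had at least 20. The 12 cells with 1 UMI of each rule gene had a median of 11.5, the *Mki67*-only barcodes 7, the *Top2a*-only barcodes 8 and the barcodes with neither 5. The 49 barcodes with at least 2 *Top2a* UMIs and no *Mki67* had a median of 16, and 40.8% of them had at least 20. These counts rise with depth, and cycling cells had a median of 24467 UMIs against 9501.5 in the rest, a ratio of 2.58 that ranged from 1.52 in control 4 to 4.77 in control 2. With every barcode thinned to 2000 UMIs by calculation, *Stmn1* (a microtubule-destabilizing protein of dividing cells) was expected in 84.3% of cycling cells and 9.40% of others, *Hmgb2* (a chromatin protein of dividing cells) in 81.0% and 14.2%, *H2afz* (a histone variant) in 93.7% and 33.9%, *Tubb5* (a tubulin) in 79.9% and 22.5%, *Tuba1b* (another tubulin) in 70.9% and 23.0%, *Cenpf* (a kinetochore protein) in 49.1% and 0.19%, *Ube2c* (which marks cyclins for destruction) in 48.3% and 0.17%, and *Prc1* (which bundles the spindle midzone) in 47.7% and 0.50%. These were, with the 2 rule genes (59.8% and 0.19% for *Top2a*, 56.6% and 0.13% for *Mki67*), the 10 genes whose expected detection rose most, and the excess was present at equal depth. At the edge in the other direction, 39 barcodes outside the rule held at least 20 G2/M genes, 15 of them in Zip8 knockout 1. The mitochondrial share was alike, with a median of 5.58% in cycling cells and 5.64% in the rest.

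Both rule genes were sparse in free RNA. In barcodes under 1000 UMIs, which mostly hold ambient RNA, *Mki67* stood between 1.90 and 9.28 CPM and *Top2a* between 0 and 4.39 CPM, and no such barcode held both. With so few UMIs of each gene, a barcode with both was unlikely at this depth, so its absence says nothing about deeper barcodes. *Scgb1a1*, the club cell secretory protein, by contrast made up between 9.59% and 27.7% of the UMIs of barcodes under 1000 UMIs. As a cell type that should lack division, barcodes with at least 4 of 5 ciliated cell markers (median 14389.5 UMIs) held *Mki67* in 1.05% and *Top2a* in 3.33%. Of these, 13 of 3990 (0.326%) met the rule, a share close to that of all kept barcodes (134 of 44096). All 13 were *Scgb1a1*-high, with a median of 93049 UMIs, and they included the 5 *Foxj1*-high cells described below, so they were not typical of that set.

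By the markers of the rule, 74 cycling cells belonged to the AEC2 lineage (*Lamp3*, a lamellar body protein; *Slc34a2*, a phosphate transporter; *Etv5*, a transcription factor), which was 0.478% of 15490 kept AEC2-lineage barcodes. Another 13 were endothelial (*Cdh5*, *Pecam1* and *Cldn5*, proteins of endothelial junctions), or 0.423% of 3076, and 18 were fibroblasts (*Col1a1*, *Col1a2* and *Dcn*, matrix proteins), or 0.0998% of 18041. None of 409 mesothelial barcodes was cycling, which allows a share of up to 0.733%, and none of the 34 immune barcodes, which allows up to 8.82%. The other 27 had equal numbers of markers of 2 lineages and 2 had none. The ties joined AEC2 and fibroblast markers in 12 cells, fibroblast and mesothelial in 7, AEC2 and endothelial in 4, endothelial and fibroblast in 3 and AEC2 and immune in 1. Among the 205 kept barcodes with *Ptprc*, the gene of CD45, 3 (1.46%) were cycling. The rule placed 1 of these with the endothelium and left 2 as ties. The AEC2 and immune tie held 15 UMIs of *Ptprc* against 1 of *Lamp3*. The absence of immune cycling cells thus depended on how the rule names lineages. By library the AEC2-lineage cycling cells numbered 21, 1, 8 and 13 in the controls and 16 and 15 in the libraries labelled Zip8 knockout, the endothelial ones 3, 1, 2 and 1 against 4 and 2, and the fibroblasts 5, 4, 2 and 2 against 2 and 3. Control 2 thus gave 1 AEC2-lineage cell out of 925 AEC2-lineage barcodes. That count leaves out the AEC2 and fibroblast ties of control 2. These held 2179 and 4172 UMIs of *Sftpc* (a surfactant protein of AEC2s) and 15 of *Lamp3* each, but at most 4 of any fibroblast marker.

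Markers outside the rule split the AEC2 lineage. *Scgb1a1* fell into separate ranges: 28 cycling cells held at least 4101 of its UMIs and all others at most 394. These *Scgb1a1*-high cells numbered 7, 1, 2 and 0 in the controls and 10 and 8 in the libraries labelled Zip8 knockout. The rule had placed 14 of them in the AEC2 lineage, 6 with the fibroblasts and 2 with the endothelium, and 6 were tied. The 6 fibroblast-lineage ones held at most 4 UMIs of any fibroblast marker each, so their *Scgb1a1* level went against that name. Those 14 held a median of 66.5 UMIs of *Sftpc*, the surfactant protein that defines AEC2s, against 1800.5 in the other 60 AEC2-lineage cells, although the former were deeper, with a median of 75180.5 against 18968 UMIs. In the 28, *Scgb1a1* made up 412226 CPM, *Scgb3a2*, another secretoglobin of small airways, 11492 CPM, and *Cyp2f2*, a cytochrome P450 of club cells, 5150 CPM. Of the 14, 10 held 31 to 88 *Sftpc* UMIs, and for these the data went against the AEC2 label. The other 4, 2 in each library labelled Zip8 knockout, held 1484 to 1882 *Sftpc* UMIs with 14 to 39 of *Lamp3* and 58 to 134 of *Slc34a2*, so markers of both kinds stood in the same barcode; the 2 of Zip8 knockout 1 were marked as likely doublets. All 14 are described by their *Scgb1a1* level below. The remaining 60 (20, 1, 7 and 13 in the controls, 10 and 9 in the libraries labelled Zip8 knockout; none had 4 of the 5 ciliated markers) are called low-*Scgb1a1* AEC2-lineage cells. Among them 1 cell of control 4 had 1 *Etv5* UMI as its single lineage marker, with 0 of *Lamp3* and *Slc34a2* and 7 of *Sftpc* in 6368 UMIs, so its other markers went against the name. The airway basal cell genes *Krt5* and *Trp63* were at 0 in all cycling cells, and *Krt15*, another gene of the basal list, was found in a few of them at 1 to 3 UMIs.

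**Figure D2:**
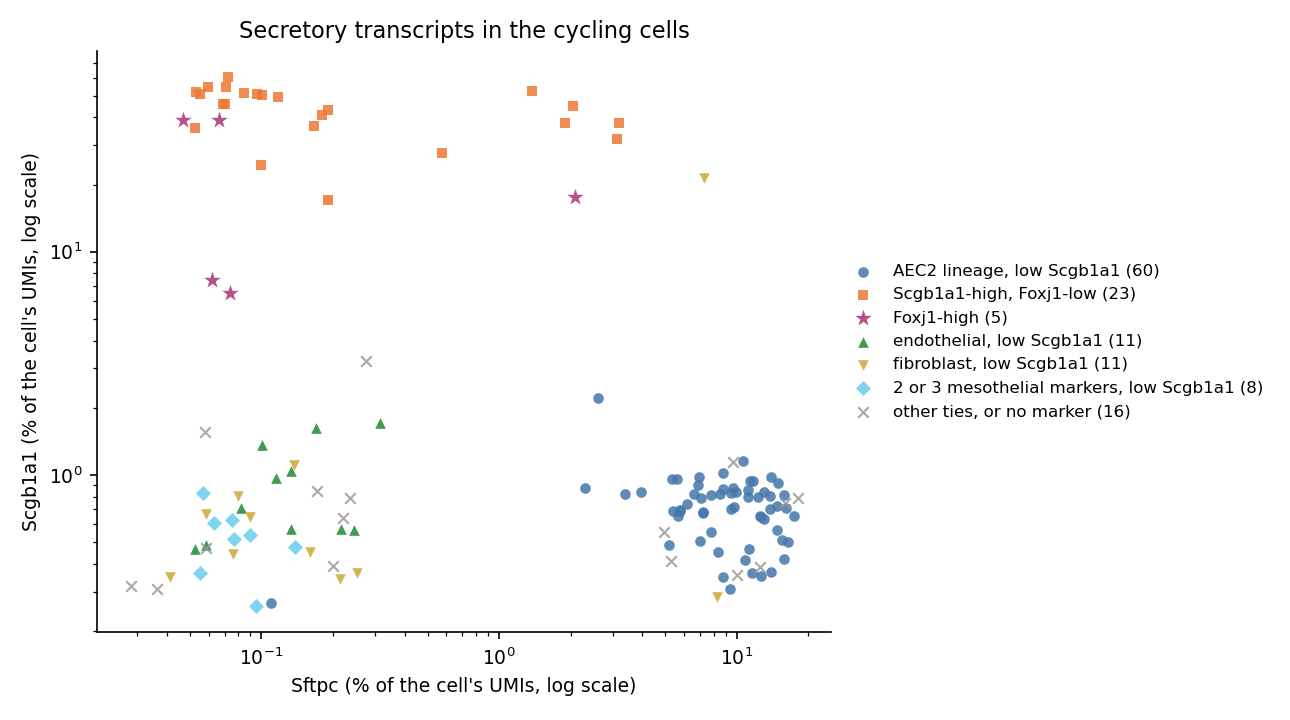
*Sftpc* (x axis) against *Scgb1a1* (y axis) in each of the 134 cycling cells, both as a percentage of the cell's UMIs on a log scale, a point per cell, with shape and colour for the kind of cell. The 28 *Scgb1a1*-high cells (23 low and 5 high in *Foxj1*) lie at the top, joined there by 1 fibroblast-lineage cell with few UMIs.

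Among the *Scgb1a1*-high cycling cells, 5 also held between 24 and 127 UMIs of *Foxj1*, the master factor of motile cilia; the next highest count was 12. They came from control 2 (1 cell), Zip8 knockout 1 (3) and Zip8 knockout 2 (1). The rule had placed 2 in the AEC2 lineage, 1 with the endothelium and 1 with the fibroblasts, and 1 was tied. The endothelial one, of Zip8 knockout 2, held 1 UMI each of *Pecam1* and *Cldn5* and 0 of *Cdh5* in 59459 UMIs. Its other markers went against that name. All 5 held transcripts of *Ccdc67* (49, 11, 84, 2 and 36 UMIs, control 2 first and Zip8 knockout 2 last), which encodes the DEUP1 scaffold on which ciliating cells build centrioles, and of *Ccno* (34, 8, 60, 5 and 33 UMIs), a cyclin of cells that amplify centrioles. *Mcidas*, which starts that programme, was found in 4 of them (8, 4, 14, 0 and 7 UMIs). Their *Top2a* counts were 40, 2, 29, 8 and 57 UMIs, but *Mki67* did not pass 2 UMIs in any, with 1, 1, 2, 1 and 2. The cells with 11 and 2 *Ccdc67* UMIs were marked as likely doublets. They were 0.883% of the 566 *Foxj1*-high barcodes (exact 95% interval, 0.287% to 2.05%). The other 23 *Scgb1a1*-high cells did not carry *Foxj1* above 12 UMIs.

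The ties between fibroblast and mesothelial markers had a common character. All 7 held all 3 mesothelial markers of the rule (*Msln* and *Upk3b*, surface proteins of the pleural lining, and *Wt1*, its transcription factor). They came from every library, with 2 in control 2 and 1 in each of the others, and were 0.478% of the 1465 kept barcodes with all 3 (exact 95% interval, 0.192% to 0.982%). In the 9 cycling cells with at least 2 of the markers, *Msln* stood at 1181 CPM and *Upk3b* at 1102 CPM, against 1301 and 1388 CPM in the set's other cells, while *Dcn* was at 4006 CPM. Among the 9, 1 *Scgb1a1*-high cell gave 100232 of their 314039 UMIs and 1 UMI each of *Msln* and *Upk3b*. Without *Scgb1a1*-high barcodes in either kind, the 8 cells left held *Msln* at 1731 against 1815 CPM and *Upk3b* at 1614 against 1948 CPM. With all 3 markers of both lineages these cells were ties, and the mesothelial lineage of the rule held no cycling cell.

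Within the endothelial lineage, 4 cycling cells held at least 4 UMIs of *Prox1*, the factor that sets lymphatic identity, and the next highest endothelial counts were 3 and 1, so the limit lies between neighbouring counts. They held 38, 10, 4 and 12 *Prox1* UMIs in control 2, control 3 (2 cells) and Zip8 knockout 2, and 89, 34, 32 and 57 UMIs of *Mmrn1*, another lymphatic gene. The cell with 3 *Prox1* UMIs, an *Scgb1a1*-high cell of control 1, held 20 of *Mmrn1* and 81 of *Ccl21a*, and the cell with 1, of control 4, held 12 and 427. The 4 were 1.28% of the 312 barcodes with as much *Prox1* (exact 95% interval, 0.350% to 3.25%). Summed over the 13 cells, the vessel genes *Vwf* and *Cldn5* stood at 293 and 738 CPM against 3054 and 2381 CPM in other endothelial cells, and the lymphatic chemokine *Ccl21a* at 4803 against 6561 CPM. Without *Scgb1a1*-high barcodes and those with *Ptprc*, the gene of CD45, the 10 cells left held *Vwf* at 546 against 3246 CPM, *Cldn5* at 1318 against 2528 CPM and *Ccl21a* at 8484 against 7014 CPM, so *Ccl21a* changed direction. *Ptprc* was found in 3 cycling cells, with 15 UMIs in a tied and 6 in an endothelial-lineage cell of control 1 and 1 UMI in a tied cell of control 4. The endothelial-lineage one held 1 UMI each of *Pecam1* and *Cldn5*, 0 of *Cdh5* and 6 of *Dcn* in 51062 UMIs. Its other markers went against that name. The 18 fibroblast-lineage cells held *Dcn* at 2651 CPM against 6978 in other fibroblasts, *Col1a1* at 679 against 1249 and *Inmt*, a gene of alveolar fibroblasts, at 499.8 against 2717; *Scgb1a1*, carried by the 6 *Scgb1a1*-high cells among them, made up 226052 CPM. With *Scgb1a1*-high and *Ptprc* barcodes left out of both kinds, the 12 cells left held *Dcn* at 6644 against 10572 CPM, *Col1a1* at 1696 against 1888 CPM and *Inmt* at 1212 against 4115 CPM. *Cldn5*, *Dcn* and *Col1a1* are lineage markers that chose both kinds of cell, so their levels are given as a description only. None of these sums was tested. The 2 cells with no lineage marker were shallow, with 1275 and 1084 UMIs, but each held 3 UMIs of both rule genes and 13 of the 52 G2/M genes.

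Most cycling cells carried more G2/M than S-phase transcripts. The S-phase list took a median of 18.5% of the UMIs of both lists per cell, ranging from 0 to 75.6%, and only 30 of 134 cells held more S-phase than G2/M UMIs. The median was 11.3% in the low-*Scgb1a1* AEC2-lineage cells (15 of 60 over 50%), 14.1% in the *Scgb1a1*-high cells (3 of 28), 17.7% in the endothelial cells (1 of 13) and 21.2% in the fibroblasts (4 of 18). Without *Scgb1a1*-high and *Ptprc* barcodes it was 20.6% in 10 endothelial cells and 23.9% in 12 fibroblasts. The medians of the kinds differed by less than the spread among cells of 1 kind. Since the rule genes peak in G2/M, this balance is in part set by the rule.

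**Figure D3:**
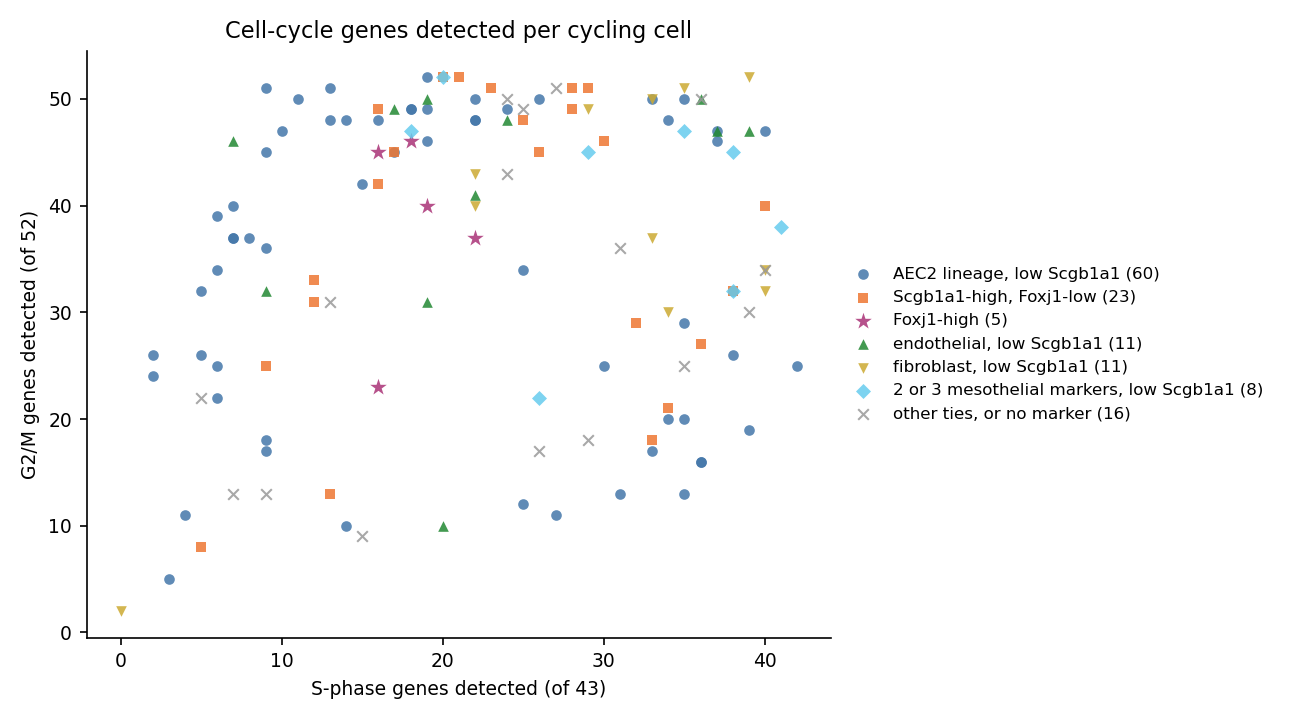
Number of S-phase genes detected of 43 (x axis) against G2/M genes detected of 52 (y axis) in each of the 134 cycling cells, a point per cell, with shape and colour for the kind of cell. The kinds overlap, and 111 of the 134 cells lie at 20 or more G2/M genes.

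The levels of single cycle genes are given as a description. Over the 6 libraries the cycling cells held *Ube2c* at 559 ± 237 CPM (SD, n = 6) against 0.627 in the rest, *Cdk1* at 318 ± 120 against 0.845, *Ccnb2*, the cyclin B2 partner of *Cdk1*, at 177 ± 65.3 against 1.12, and *Ccna2*, cyclin A2, at 141 ± 44.7 against 0.277. The S-phase gene *Rrm2*, a subunit of the enzyme that makes deoxynucleotides, stood at 145 ± 52.7 against 0.949, and *Tyms*, thymidylate synthase, at 131 ± 47.2 against 10.4. *Cdk4*, a kinase that acts before S phase and is not confined to dividing cells, stood at 137 ± 40.5 against 55.9. These contrasts follow from the rule and are given without a test. Replication-dependent histone *Hist1h2ap* differed between kinds, with 214 CPM in the low-*Scgb1a1* AEC2-lineage cells and 256 in the *Scgb1a1*-high cells, against 1461 in the endothelial and 1188 in the fibroblast cells; these sums rest on 60, 28, 13 and 18 cells and were not tested. It was 1928 CPM in the 10 endothelial and 1931 CPM in the 12 fibroblast-lineage cells without *Scgb1a1*-high and *Ptprc* barcodes.

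Within the AEC2 lineage the contrast with non-cycling cells could be made library by library. The 59 low-*Scgb1a1* cycling cells of 5 libraries (control 2 had 1 and was left out) were compared with the other low-*Scgb1a1* AEC2-lineage cells of the same library, as the difference of log2(CPM + 10). Among 6535 genes, 31.5% were higher in the cycling cells of all 5 libraries and 9.15% lower, with a median difference of 0.23, and the lists are read beside these shares. Of the G2/M list 50 of 51 genes were higher in all 5 (median 3.43), as were 40 of 41 S-phase genes (median 2.03) and 8 of 10 histone genes. Of 14 cyclins and cyclin-dependent kinases, 12 were higher and 1 lower. *Cdk1* was higher by 5.38 ± 0.34 (SD, n = 5), *Ube2c* by 6.23 ± 0.16, *Rrm2* by 4.21 ± 0.67, *Mcm5*, a helicase subunit, by 3.26 ± 0.37, and *Pcna*, the sliding clamp of DNA polymerase, by 2.53 ± 0.75, whereas *Ccnd1*, the cyclin D1 of the entry into the cycle, was higher by 0.75 ± 0.22. Of the E2F, RB and MYB-MuvB genes 5 of 9 were higher, among them *Foxm1* by 2.62 ± 0.65 and *E2f1* by 2.12 ± 0.80. All these genes are part of, or follow from, the contrast that defined the cells. With at least 2 AEC2 markers required of both kinds, which left out the control 4 cell with 1 marker, the numbers higher and lower in all 5 libraries were the same for each list.

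Transcripts of genes listed as inhibitors of the cycle were present in the same cells. Of 5 genes measured from the list of cyclin-dependent kinase inhibitors, 4 were higher in all 5 libraries. These were *Cdkn2c* (p18) by 3.18 ± 0.47, *Cdkn2d* (p19) by 2.94 ± 0.43, *Cdkn3* by 3.29 ± 0.44 and *Cdkn1b* (p27) by 0.66 ± 0.52. Whether these rises follow from the contrast that defined the cells was not tested, nor was any inhibition of the cycle. *Cdkn1a* (p21), a p53 target, was mixed, from -0.18 to 1.83. It stood at 124, 103, 222 and 221 CPM in control cycling cells and 158 and 302 CPM in those labelled Zip8 knockout, and in the non-cycling cells between 52.6 and 69.6 CPM in the 4 controls against 180 and 144 CPM. The non-cycling cells of the 2 labelled Zip8 knockout libraries thus lay above all controls in *Cdkn1a*, and Zip8 knockout 1 was the library in which the cycling cells were lower than the non-cycling ones. Of 9 p53 targets 1 was higher and 3 were lower in all 5 libraries, among the latter *Btg2*, an antiproliferative gene, by -1.05 ± 0.65 and *Ccng1* by -0.82 ± 0.61.

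**Figure D4:**
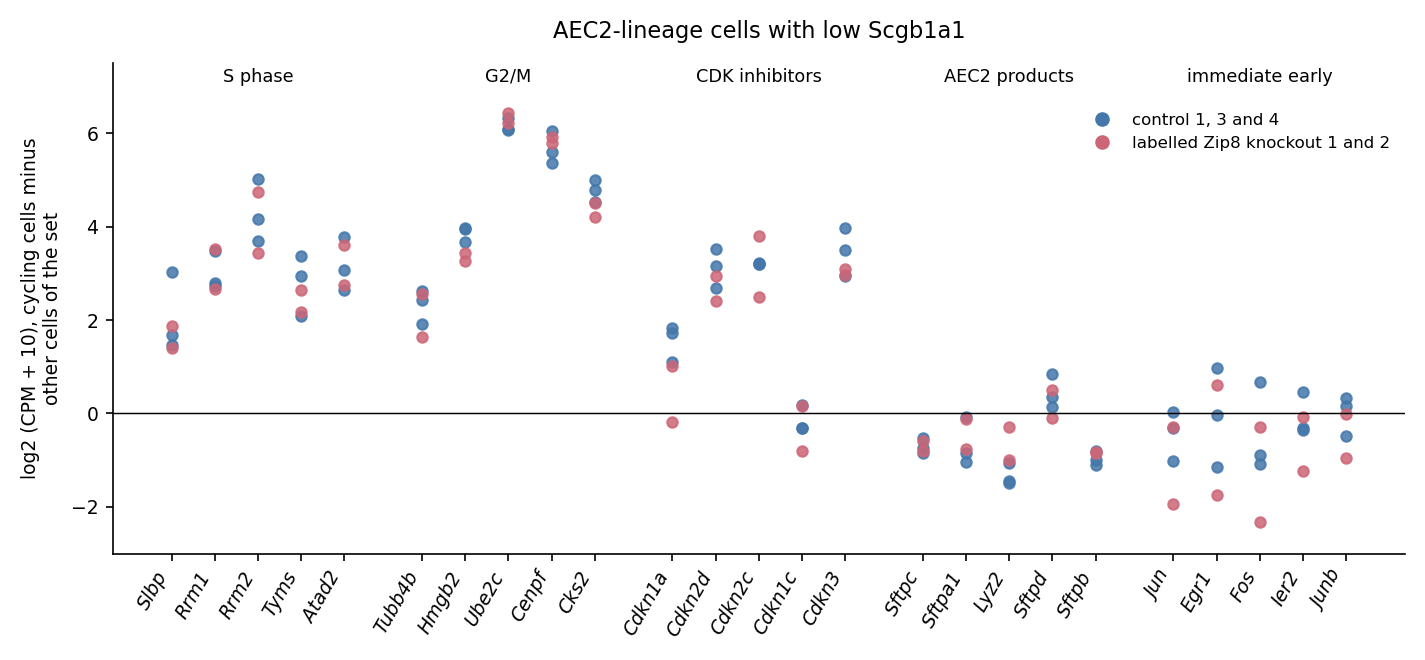
Difference between cycling and other low-*Scgb1a1* AEC2-lineage cells on the log2(CPM + 10) scale (y axis) for named genes grouped by list (x axis), with a point for each of 5 libraries (3 control, 2 labelled Zip8 knockout). The G2/M and S-phase genes plotted and the inhibitor genes *Cdkn2c*, *Cdkn2d* and *Cdkn3* lie above 0 in every library, *Cdkn1a* and *Cdkn1c* (the latter too low to be among the 5 inhibitors counted above) on both sides, *Sftpc*, *Sftpa1*, *Lyz2* and *Sftpb* below it, and the 5 immediate early genes lie on both sides.

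Genes of AEC2 identity were lower in the cycling cells, in the same contrast. Of 11 such genes 10 were lower in all 5 libraries, and *Sftpd*, surfactant protein D, was mixed (0.35 ± 0.36). *Abca3*, the lipid pump of lamellar bodies, differed by -1.17 ± 0.42, *Lyz2*, lysozyme, by -1.06 ± 0.49, and *Sftpc* by -0.70 ± 0.13. The lineage markers, which chose both kinds of cell and are not among the 11, differed by -1.25 ± 0.39 (*Slc34a2*), -0.55 ± 0.16 (*Etv5*) and -0.53 ± 0.19 (*Lamp3*), given as a description only. *Sftpc* stood at 122688, 116561 and 106300 CPM in the cycling cells of controls 1, 3 and 4 against 177254, 195790 and 190532 CPM in the non-cycling cells, and the 2 libraries labelled Zip8 knockout had 68586 and 61862 CPM against 103725 and 107467 CPM. The cycling cells were below the non-cycling cells of their own library each time, and both kinds of cell were lower in the labelled Zip8 knockout libraries than in every control. *Slc39a8* was lower by -0.55 ± 0.38 (-0.88 to -0.01), and *Mt1* and *Mt2*, zinc-binding metallothioneins, were higher by 0.88 ± 0.57 and 0.91 ± 0.76. Of 5 general epithelial genes *Krt8* and *Epcam* were higher in all 5 libraries, by 1.55 ± 0.45 and 1.50 ± 0.28, *Cldn18*, a tight junction gene of alveolar cells, was lower by -0.57 ± 0.42, and *Krt18* and *Cdh1* were mixed. The globin gene *Hbb-bs*, which marks free red cell RNA, was lower by -2.38 ± 1.11, as were all 4 erythroid genes measured; cycling cells held more UMIs, and the part of depth and free RNA in these lower values was not tested. CPM are shares of a cell's UMIs, so a gain of cycle genes lowers the share of others; the median over all genes was 0.23, as given above.

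The question the design poses for these cells is whether their share differed between Zip8 knockout and control lungs. Cycling cells made up 0.507%, 0.147%, 0.190% and 0.230% of kept barcodes in controls 1 to 4 (37 of 7301, 14 of 9507, 14 of 7366 and 20 of 8679) and 0.474% and 0.393% in the libraries labelled Zip8 knockout (28 of 5903 and 21 of 5340). Control 1 was the highest of all 6, and the groups overlapped through it. The mean was 0.269% ± 0.162 (SD, n = 4) in controls and 0.434% ± 0.0573 (SD, n = 2) in the libraries labelled Zip8 knockout, a difference of 0.165 percentage points (two-sided exact permutation test over 15 splits, p = 0.400; the smallest p the design allows is 0.0667). Without control 1 the groups did not overlap and the difference was 0.245 points (p = 0.100, exact permutation test, the smallest p then possible). With all barcodes thinned to 2000 UMIs, the expected shares were 0.190%, 0.0954%, 0.104% and 0.105% against 0.162% and 0.160%, and the difference was 0.0371 points (p = 0.400, exact permutation test). At 5000 UMIs it was -0.000726 points. Without the barcodes that had a deeper copy in another library, the difference as deposited was 0.154 points. A difference between the groups was therefore not detectable at this number of libraries.

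By kind of cell the pattern was uneven. At 2000 UMIs, the AEC2-lineage shares were 0.243%, 0.0543%, 0.197% and 0.189% in controls and 0.116% and 0.232% in the libraries labelled Zip8 knockout, with means of 0.171% ± 0.0814 (SD, n = 4) and 0.174% ± 0.0825 (SD, n = 2; exact permutation p = 1.00, adjusted over 3 lineages 1.00). For the low-*Scgb1a1* AEC2-lineage cells the means as deposited were 0.431% ± 0.260 and 0.432% ± 0.0551 (exact permutation p = 1.00). As deposited, the whole AEC2 lineage had means of 0.396% ± 0.248 and 0.543% ± 0.108, a difference of 0.147 points (exact permutation p = 0.467). With the spread of the controls none of these p-values shows that the shares were equal. Endothelial shares were 0.349%, 0.0897%, 0.387% and 0.0747% against 0.867% and 0.0998% (difference 0.258 points, exact permutation p = 0.400, adjusted 0.600). The endothelial difference turned to -0.187 points at 5000 UMIs and -0.125 without Zip8 knockout 1, and was 0.642 without Zip8 knockout 2. Fibroblast shares were 0.0667%, 0.0337%, 0.0357% and 0.0174% against 0.156% and 0.0843%, so the groups did not overlap (means 0.0384% ± 0.0206 and 0.120% ± 0.0507, exact permutation p = 0.0667, the smallest possible, adjusted 0.20). As deposited they were 0.178%, 0.0620%, 0.0580% and 0.0769% against 0.220% and 0.164%, and the groups overlapped (difference 0.0981 points, exact permutation p = 0.20). At 2000 UMIs the difference of 0.0818 points became 0.0131 (exact permutation p = 0.933) without barcodes with markers of 2 lineages and 0.0253 at 2 UMIs of each rule gene, but 0.103 without *Scgb1a1*-high barcodes and, at 5000 UMIs, 0.131 (both exact permutation p = 0.0667). The fibroblast shares rested on 2 to 5 cells per library as deposited, and at 2000 UMIs on an expected 1.70, 1.74, 1.13 and 0.407 cells in the controls and 1.30 and 1.45 in the libraries labelled Zip8 knockout.

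**Figure D5:**
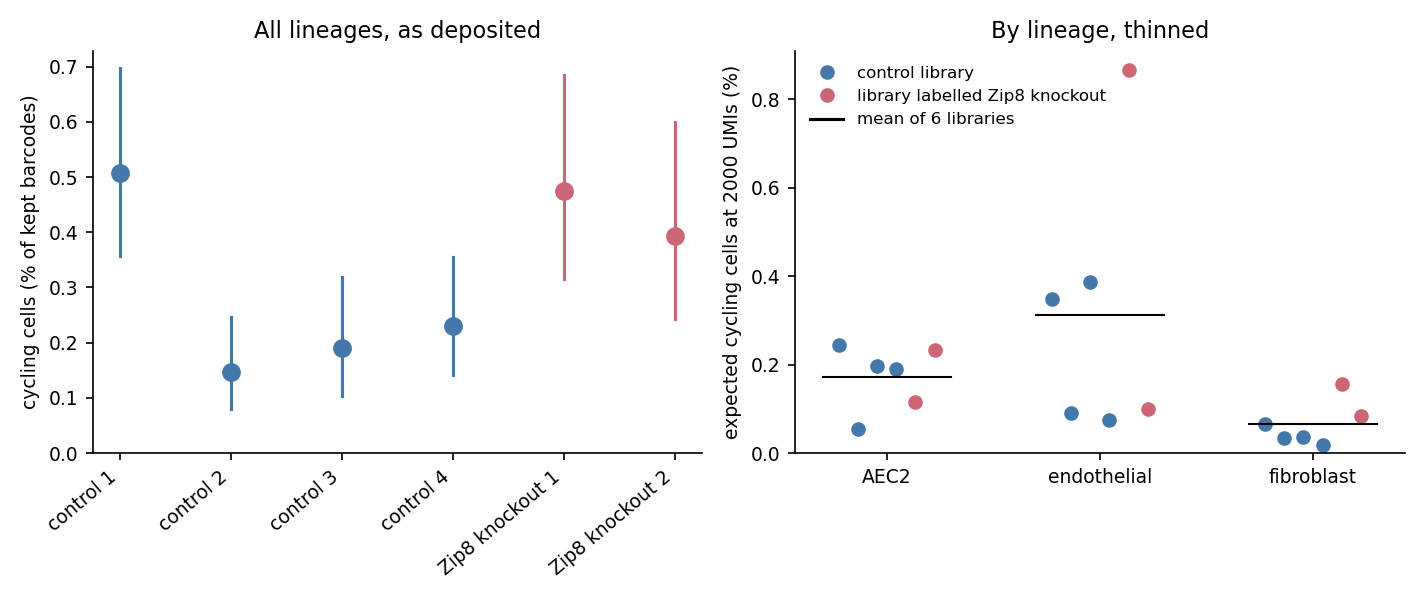
Left, cycling cells as a percentage of kept barcodes in each of the 6 libraries, with exact binomial 95% intervals as bars. Right, expected percentage of cycling cells at 2000 UMIs by lineage, a point per library, with the mean of 6 libraries as a line; at this depth the groups overlap except in the fibroblast lineage.

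The share of cycling cells among *Scgb1a1*-high barcodes moved with depth. As deposited, 0.723%, 0.0438%, 0.0760% and 0% of *Scgb1a1*-high barcodes were cycling in the controls (7 of 968, 1 of 2283, 2 of 2631 and 0 of 749, the last allowing up to 0.401%), against 0.861% and 1.14% in the libraries labelled Zip8 knockout (10 of 1161 and 8 of 704). The groups did not overlap, with means of 0.211% ± 0.343 and 0.999% ± 0.194 (exact permutation p = 0.0667, the smallest possible). Depth moved with this result: the median UMIs of *Scgb1a1*-high barcodes were 22621.5, 3675, 4235 and 12396 in the controls and 39971 and 59378.5 in the libraries labelled Zip8 knockout. At 2000 UMIs the means were 0.0579% ± 0.0952 and 0.0968% ± 0.00427 (exact permutation p = 0.600), and control 1 was the highest library. Without *Scgb1a1*-high barcodes the overall difference was 0.0402 points (exact permutation p = 0.733).

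Between lineages, the share at 2000 UMIs averaged 0.172% ± 0.0731 (SD, n = 6) in the AEC2 lineage, 0.311% ± 0.305 in the endothelium and 0.0656% ± 0.0505 in fibroblasts. The endothelial share was above the fibroblast share in 6 of 6 libraries, by 0.245 points (exact sign-flip permutation test over libraries, p = 0.0312, the smallest possible; adjusted over 3 pairs, 0.0938). The AEC2 share was above it in 5 of 6 libraries, by 0.106 points (exact sign-flip permutation p = 0.0938, adjusted 0.141). AEC2 and endothelial shares differed by -0.139 points (exact sign-flip permutation p = 0.406, adjusted 0.406), with AEC2s higher in 2 of 6. As deposited, without thinning, the AEC2 excess over fibroblasts was 0.318 points and the endothelial excess 0.389 points (both adjusted exact sign-flip permutation p = 0.0469), and at 5000 UMIs the endothelial excess over fibroblasts was 0.697 points and the AEC2 minus endothelial difference -0.544 points (both adjusted exact sign-flip permutation p = 0.0469). Which pairs passed thus depended on how depth was treated.

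Gene expression in the cycling cells was compared between groups where the counts allowed. No lineage had 10 cycling cells in every library, so the low-*Scgb1a1* AEC2-lineage cells were summed per library (20, 7 and 13 cells in controls 1, 3 and 4 against 10 and 9 in the libraries labelled Zip8 knockout) and tested with edgeR's quasi-likelihood test, a choice made after the cell numbers were seen. Of 3812 genes, 1 passed an adjusted p of 0.05 (0.0262%), and 120 had an unadjusted p under 0.05; DESeq2 also called 1. The gene was *Itih4*, which encodes an acute-phase plasma protein. It stood at 45.6, 46.7 and 34.6 CPM in the controls and 392 and 143 CPM in the libraries labelled Zip8 knockout (log2 fold change 2.60, SE 0.42, edgeR adjusted p = 0.0440). The call rested on few cells: 5, 4 and 3 control cells held an *Itih4* UMI against 7 and 5, and 1 cell of Zip8 knockout 1 held 33 of its UMIs. The edgeR adjusted p was 0.0800 with at least 2 AEC2 markers required, which left out 1 cell (of control 4), 0.147 without likely doublets and 0.446 without cells with markers of 2 lineages, with log2 fold changes of 2.58, 2.51 and 3.21. With all AEC2-lineage cycling cells of the rule kept it was 0.0769, with a log2 fold change of 1.76. Without control 1, control 3, control 4 or Zip8 knockout 1 its log2 fold change was 2.67, 2.67, 2.52 or 1.66 and its edgeR adjusted p 0.903, 0.567, 0.0511 or 0.636; without Zip8 knockout 2 they were 3.20 and 1.3e-12, the arm then being 1 library. In the non-cycling cells of the same lineage *Itih4* was 135, 103 and 114 CPM against 303 and 134 CPM.

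In the low-*Scgb1a1* cells neither the cycle genes outside the rule nor the AEC2 identity genes showed a call between the groups. *Cdk1* differed by -0.16 on the log2 scale, *Slc39a8* by 0.34 and *Cdkn1a* by 0.29, all with an edgeR adjusted p of 1.00. The rule genes *Mki67* and *Top2a*, which chose the cells, differed by -0.16 and 0.02, given as a description only. *Sftpc* was lower by -0.84 (SE 0.21, edgeR adjusted p = 0.851) and *Lyz2* higher by 0.73 (SE 0.23, edgeR adjusted p = 1.00), and for both genes the groups did not overlap. With all AEC2-lineage cycling cells of the rule kept, of which 1, 1 and 0 were *Scgb1a1*-high in controls 1, 3 and 4 and 6 and 6 in the libraries labelled Zip8 knockout, 50 genes passed, among them *Sftpc*, lower by -1.47 (edgeR adjusted p = 0.00051), and *Aspm*, a spindle pole gene of mitosis, lower by -1.57 (edgeR adjusted p = 0.0434); the part of the *Scgb1a1*-high cells in these calls was not tested. Over all genes 9.52% were higher without overlap and 7.5% lower. Of 47 G2/M genes 0 were higher and 4 lower without overlap, of 27 S-phase genes 0 and 2, and of 11 AEC2 identity genes 5 and 1.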

How the data were processed

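The authors aligned the reads to mm10 with Cell Ranger (version 3.1.0 in the file headers) and deposited UMI counts per gene and barcode; their later Seurat filters are not applied in these counts. The kit is version 2 per the labels. Cells were counted here with scanpy 1.11.5, scipy 1.17.1 and numpy 2.4.6 in Python 3.11.15, doublets were marked with Scrublet at a rate of 0.8% per 1000 barcodes, and figures were drawn with matplotlib 3.10.9. Members, gene lists and tests were chosen with earlier results of these data known. Shares were compared over libraries with exact permutation tests. Shares at 2000 or 5000 UMIs are the expected share after random thinning of each barcode, and 4523 barcodes under 2000 UMIs were left out. Sums of counts per library were tested with edgeR 4.0.16 (TMM, quasi-likelihood, Benjamini-Hochberg adjustment) in R 4.3.3, and with DESeq2 1.42.0 as an alternative. The edgeR test and the calculation of shares were tested on simulated data. Named genes were the rule and lineage genes, *Slc39a8*, *Esr1* and *Cdkn1a*, up to 5 genes per list with the highest mean CPM in cycling cells, genes past the edgeR threshold without overlap, and the 10 whose detection rose most at 2000 UMIs. Further genes (among them *Mcm5*, *Pcna*, *Foxm1*, *E2f1*, *Ccdc67*, *Ccno*, *Mcidas*) were chosen after their values were seen. Gene identifiers and positions came from the files and GENCODE on mm10: *Mki67* (ENSMUSG00000031004) lies at chr7:135689784-135716361 and *Top2a* (ENSMUSG00000020914) at chr11:98992943-99024189. Alternatives changed the depth, cell filter, rule, lineage call, doublets, shared barcodes, normalization, test and libraries.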

Additional observations from a re-analysis of the deposited data

Results flagged for a closer look

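In 78 sets of 4 control values, 15 held a library far from the other 3 by Dixon's test at 95%. A rate of 1 in 20 would give about 3.9. Several sets rest on the same cells, so they are not independent, and the 15 do not measure an excess over chance. Control 1 stood apart in the share of cycling cells at 2000 UMIs (0.190% against 0.0954% to 0.105%), in the fibroblast share as deposited (0.178% against 0.0580% to 0.0769%), and in the share among *Scgb1a1*-high barcodes, as deposited (0.723% against 0% to 0.0760%) and at 2000 UMIs (0.199% against 0% to 0.0324%). Of its 5 fibroblast-lineage cycling cells, 3 were *Scgb1a1*-high and 1 held only 1004 UMIs. Its cycling cells were also low in *Rrm2* (123 against 184 to 196 CPM), *Tyms* (105 against 169 to 176 CPM) and the growth factor gene *Areg* (64.9 against 249 to 283 CPM). They held *Esr1* at 1.01 CPM where the other controls were at 0. This was 1 UMI in the endothelial-lineage cell with 6 *Ptprc* UMIs, whose other markers went against that name. Control 2, whose 14 cycling cells included the *Foxj1*-high cell of 128605 UMIs, stood apart in the cilia genes *Dynlrb2* (445 against 15.2 to 40.5 CPM), *Ccdc153* (160 against 2.03 to 11.0 CPM), *Foxj1* (107 against 1.01 to 3.68 CPM) and *Tmem212* (100.2 against 0 to 11.0 CPM), as well as in *Hist1h2ap* (770.2 against 523 to 554 CPM) and *Btg2* (492 against 382 to 394 CPM). In control 4 the S-phase list took 29.1% of the summed UMIs of both phase lists, against 18.7% to 20.3% in the other controls.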

How the results depend on the processing

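Few cells limit all of this: a library gave 14 to 37 cycling cells and a lineage as few as 0. For the share of all kept barcodes, 15 of 16 alternatives kept the direction (0.125 to 0.245 points with a library left out); at 5000 UMIs the difference reversed to -0.000726. Within lineages, 43 of 51 kept theirs. The AEC2 difference reversed at 5000 UMIs (-0.0329), under the stricter cell filter of 1000 genes and 10% mitochondrial UMIs (-0.00830), without *Scgb1a1*-high barcodes (-0.000756), with ties settled by UMIs (-0.0298), and ranged from -0.0553 (without Zip8 knockout 2) to 0.0613 with a library left out (-0.0360 without control 2). The endothelial difference reversed at 5000 UMIs (-0.187) and ranged from -0.125 (without Zip8 knockout 1) to 0.642 with a library left out. The fibroblast difference ranged from 0.0459 to 0.118 with a library left out, but was 0.0131 without barcodes with markers of 2 lineages, 0.0253 at 2 UMIs of each rule gene and 0.131 at 5000 UMIs. With 15 splits no permutation test of these shares could pass 0.05. Pairing by replicate number, which had 2 pairs and no stated meaning, gave block values of 0.107 points for all cells, 0.0253 for AEC2s, 0.264 for endothelium and 0.0700 for fibroblasts, with no test. Between lineages, AEC2 minus fibroblast and endothelial minus fibroblast passed an adjusted p of 0.05 without thinning (0.318 and 0.389), and at 5000 UMIs endothelial minus fibroblast (0.697) and AEC2 minus endothelial (-0.544) did; with a library left out they ranged from 0.0924 to 0.136, from 0.152 to 0.291 and from -0.193 to -0.0167. The 1 call of edgeR became 6 without a filter on low counts, 50 with *Scgb1a1*-high cells kept (46 higher), 2 at 2 UMIs of each rule gene, and 0 without doublets, without cells with markers of 2 lineages or at 2 markers, and ranged from 0 to 45 with a library left out (0 without control 1 or 3, 2 without Zip8 knockout 1, 45 without Zip8 knockout 2; the latter 2 fits leave 1 library in that arm, which is assumed to vary like the controls). Sets of cells by *Scgb1a1* or *Ptprc* and a minimum of 10 G2/M genes were added after seeing the data. The planned fits by lineage and their interaction were not run, since no lineage had 10 cycling cells in every library. No paired analysis was possible because control 2 had 1 such cell, which left fewer than 2 shared replicate numbers for the gene test. The cause of these changes was not tested.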

Other observations

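Single genes of blood lineages varied by library in the cycling cells. Whether a single cell carried each of these sums was not tested. *Jchain*, the joining chain of secreted antibodies, stood at 993 CPM in the cycling cells of control 4, at 1.01 CPM in control 1 and at 0 in the other 4 libraries. *Nkg7*, a granule gene of killer lymphocytes, stood at 43.6 CPM in control 1 and at 0 in the rest. *Fabp4*, a fatty acid carrier of capillary endothelium and alveolar macrophages, stood at 318 CPM in control 2 and at most 31.5 CPM elsewhere, and the T cell genes *Cd3e*, *Cd3d* and *Cd3g* were at 0 in every library's cycling cells. The macrophage genes *Cd68* and *Mrc1* were found in 19 and 7 of the 134 cycling cells, and *C1qa*, *Adgre1* and *Marco* in 0. Of the B cell genes, *Cd79a* was found in 2 and *Ms4a1* in 0.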
